A study of Homo sapiens with 18 samples.

Results

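The glycolysis and hypoxia response genes are 36 genes chosen by symbol: the glucose and lactate transporters, the enzymes from hexokinase to lactate dehydrogenase, the PFKFB and pyruvate dehydrogenase kinases, and genes known to be induced when oxygen is low. All 36 were among the 28278 symbols of the deposited count table, and 35 passed the filter on low counts; CA9, a carbonic anhydrase gene, did not. The counts came from poly(A)-enriched RNA of LX-2, a line of human hepatic stellate cells, in 18 bulk libraries. Cells were held for 1 h in medium without serum and then given thrombin (1 U/mL), the clotting protease, or the same serum-free medium as control, for 4, 24 or 48 h. This made 6 groups of 3 libraries, numbered 12, 13 and 14 in the labels, and all 6 groups shared the cell line and the loss of serum. The labels do not say whether the numbers stand for separate cultures, so each p-value rests on variation among these libraries that may be technical. The design asks how thrombin changes stellate cell transcripts at each time.

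Glycolysis splits glucose into pyruvate in the cytosol, and lactate dehydrogenase turns pyruvate into lactate, which leaves the cell through monocarboxylate transporters. Many steps have several isoenzymes encoded by separate genes, such as enolase (ENO1, ENO2), aldolase (ALDOA, ALDOC), phosphofructokinase (PFKL, PFKM, PFKP) and lactate dehydrogenase (LDHA, LDHB). Hypoxia-inducible factors (HIFs) are marked for destruction by the oxygen-dependent hydroxylases EGLN1 and EGLN3, and when oxygen is low they bind short elements with the core letters ACGTG or GCGTG near many glycolytic genes. Activated stellate cells are known for high glycolytic flux. No oxygen level is given in the labels, and RNA counts measure neither HIF activity nor flux.

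Each library held between 14431044 and 23270601 counts. The 36 genes together took between 0.689% and 0.862% of a library. Thrombin 4 h and control 24 h, as labelled, were close to each other. The edgeR test called 0 of 35 members between them, against 0.0195% of all genes higher and 0.0521% lower (0.0716% in all). An unadjusted edgeR p under 0.05 was found in 3 members (SLC2A3, PFKM and ENO2) and in 857 of 15353 genes. DESeq2 also called 0 members. Without all libraries numbered 12, SLC2A3 was called lower there. Every direction below rests on these labels. Stellate markers VIM and COL1A1 measured at least 1743 CPM (counts scaled to library size) in every library, while LRAT, DCN and LUM stayed at or below 0.441 CPM. Of 8 hepatocyte markers the summed level was 4.15 to 7.07 CPM, mostly from SERPINA1, with TTR at 0. Of 7 endothelial markers it was 16.3 to 30.9 CPM with LYVE1 at 0, and of 7 macrophage markers 68.1 to 103 CPM, mostly CD68, with C1QA at 0. Of 5 cholangiocyte markers it was 134 to 278 CPM, mostly SOX9, with EPCAM and CFTR at or below 0.200 CPM. At 24 h thrombin libraries were higher in CDH5, KDR and KRT7, in PDGFRA, ACTA2, COL1A1, COL1A2 and THY1, and lower in PECAM1, and at 4 h COL1A1 was lower; no other marker was called at those times, and their part in the results was not tested. In bulk RNA, fewer cells of a kind and less RNA per cell cannot be told apart.

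Some members share sequence with copies or neighbours, and their counts are uncertain because no source used here gives the counting rule. GENCODE v29 lists 62 pseudogenes of GAPDH, 39 of BNIP3, 13 of PGAM1, 6 of LDHA, 5 of PKM and 4 of ENO1. ENO2, PFKP, PFKL and NDRG1 had none under their symbols. ALDOA shares exons with another annotated protein-coding gene on the same strand, as do GPI, LDHB and PGK1 (with ATP7A, which has its own row in the table). Non-coding genes or pseudogenes of the same strand share exons with SLC2A1, PFKP, PGK1 and HILPDA. SLC2A1, PFKM, TPI1, ENO1, SLC16A3 and BNIP3L overlap a gene of the opposite strand that has its own row in the table. CPM is not corrected for gene length, so members are not ranked by level.

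The HIF core letters were looked for in 250 bases before 1 annotated RefSeq start per gene (GRCh38.p14), on both strands. Of the 36 members 32 had an entry; in 22 of these the start was the gene's outermost, and in 10, GPI and GAPDH among them, it was another start. ACGTG was found in 13 of the 32 (40.6%) and in 20.3% of 18292 promoters of genes in the table, and GCGTG in 12 (37.5%) and in 36.9%. Shown here are LDHA and ENO1, which were lower under thrombin at 4 h and higher at 24 h, and ENO2 and MXI1, which went the other way, from 5′ to 3′ on the gene's strand with the matched letters in capitals. They lie at chr11:18394313-18394562 (+ strand), chr1:8878687-8878936 (- strand), chr12:6914330-6914579 (+ strand) and chr10:110207355-110207604 (+ strand).
LDHA: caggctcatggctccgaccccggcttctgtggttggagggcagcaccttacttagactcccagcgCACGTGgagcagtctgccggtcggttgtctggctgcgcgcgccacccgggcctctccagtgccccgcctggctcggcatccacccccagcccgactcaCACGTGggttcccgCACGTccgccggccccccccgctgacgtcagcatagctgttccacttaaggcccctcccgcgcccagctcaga
ENO1: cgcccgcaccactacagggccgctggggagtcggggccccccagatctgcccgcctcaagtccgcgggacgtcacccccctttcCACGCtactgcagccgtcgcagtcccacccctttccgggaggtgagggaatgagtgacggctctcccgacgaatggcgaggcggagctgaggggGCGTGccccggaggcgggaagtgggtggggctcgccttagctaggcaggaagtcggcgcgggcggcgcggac
ENO2: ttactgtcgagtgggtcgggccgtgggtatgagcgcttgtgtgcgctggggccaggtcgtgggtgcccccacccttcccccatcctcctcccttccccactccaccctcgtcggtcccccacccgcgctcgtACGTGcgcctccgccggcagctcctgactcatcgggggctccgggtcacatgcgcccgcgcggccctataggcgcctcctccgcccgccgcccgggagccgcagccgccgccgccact
MXI1: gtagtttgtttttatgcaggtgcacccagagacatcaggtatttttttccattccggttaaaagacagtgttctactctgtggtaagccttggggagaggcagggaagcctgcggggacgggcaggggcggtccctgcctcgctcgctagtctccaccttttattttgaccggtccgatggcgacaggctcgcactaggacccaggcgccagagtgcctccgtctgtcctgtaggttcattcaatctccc
LDHA held CACGTG, which matches ACGTG on both strands, starting 185 and 87 bases before the start, and a further match 73 bases before it. ENO1 held GCGTG on the opposite strand 166 bases and on its own strand 72 bases before the start. ENO2 held ACGTG once, 118 bases before the start, and the MXI1 window held neither. Matches were thus present on both sides of the split by direction; a match describes the letters and shows no binding.

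At 4 h, 4 of the 35 tested members were higher and 5 lower under thrombin (edgeR quasi-likelihood test, Benjamini-Hochberg adjusted p under 0.05 over 15353 genes). The neuronal enolase gene ENO2, the repressor gene MXI1, the muscle phosphofructokinase gene PFKM and the brain aldolase gene ALDOC rose, and NDRG1, LDHA, ENO1, PGK1 and PGAM1 fell. Log2 fold changes of those called ran from -0.73 (NDRG1) to 0.73 (ENO2). Over all genes 6.29% were called higher and 5.52% lower, so the members' 25.7% stood beside 11.8%. The members were chosen with earlier results of these data known, so such shares, here and below, are not independent support. The members drew more counts per gene than most, with a median, not corrected for length, of 79.5 CPM against 24.9 over all genes tested. Among the 10228 genes averaging at least 10 CPM 14.9% were called, and 9 of the 32 members among them. Without control library 14 or thrombin library 14 of 4 h, 2 members were called higher. Over all genes, 509 and 425 were called higher in these runs, beside 965 with every library. Without control library 13 of 4 h 2 members were called lower, and without control library 12 or 14 or thrombin library 12 or 14 of 4 h, 3 were. All genes called lower numbered 459 in the first of these runs, then 940, 499, 1114 and 415, beside 848 with every library. CPM ranges did not overlap in 5 higher and 9 lower members, against 13.4% and 12.4% of all genes.

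At 24 h thrombin libraries were higher in 7 members (LDHA, NDRG1, ENO1, PFKP, EGLN1, GPI and PGAM1) and lower in 7 (ENO2, MXI1, ALDOC, SLC2A1, PFKM, SLC2A3 and BNIP3), against 9.05% and 8.54% of all genes. The called changes ran from -0.82 for MXI1 to 0.44 for NDRG1 on the log2 scale. That was 40% of the members beside 17.6% of all genes. Among genes averaging at least 10 CPM, 14 of 32 members were called, beside 20.4% of all such genes. Of the members called at 4 h, 8 were also called at 24 h, and all 8 had the opposite sign. Those 8 were 88.9% of the members called at 4 h and 57.1% of those called at 24 h. The same shares over all genes tested were 53.0% and 35.6%. Over all genes tested, 948 of 961 genes called at both times also had opposite signs. CPM ranges at 24 h did not overlap in 10 higher and 9 lower members, against 17.1% and 17%. At 48 h edgeR called 0 members and 0% of all genes; 4 members (MXI1, ENO2, ADM and ANKRD37) had an unadjusted p under 0.05, as had 1110 of all genes. DESeq2 called 0 members there, and 13 genes higher and 7 lower over the table. CPM ranges at 48 h did not overlap in 6 higher and 4 lower members, against 7.28% and 6.96% of all genes. The median log2 fold change of the 35 members was -0.05, 0.03 and 0.07 at 4, 24 and 48 h, against 0.00, 0.00 and 0.01 over all genes.

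**Figure D1:**
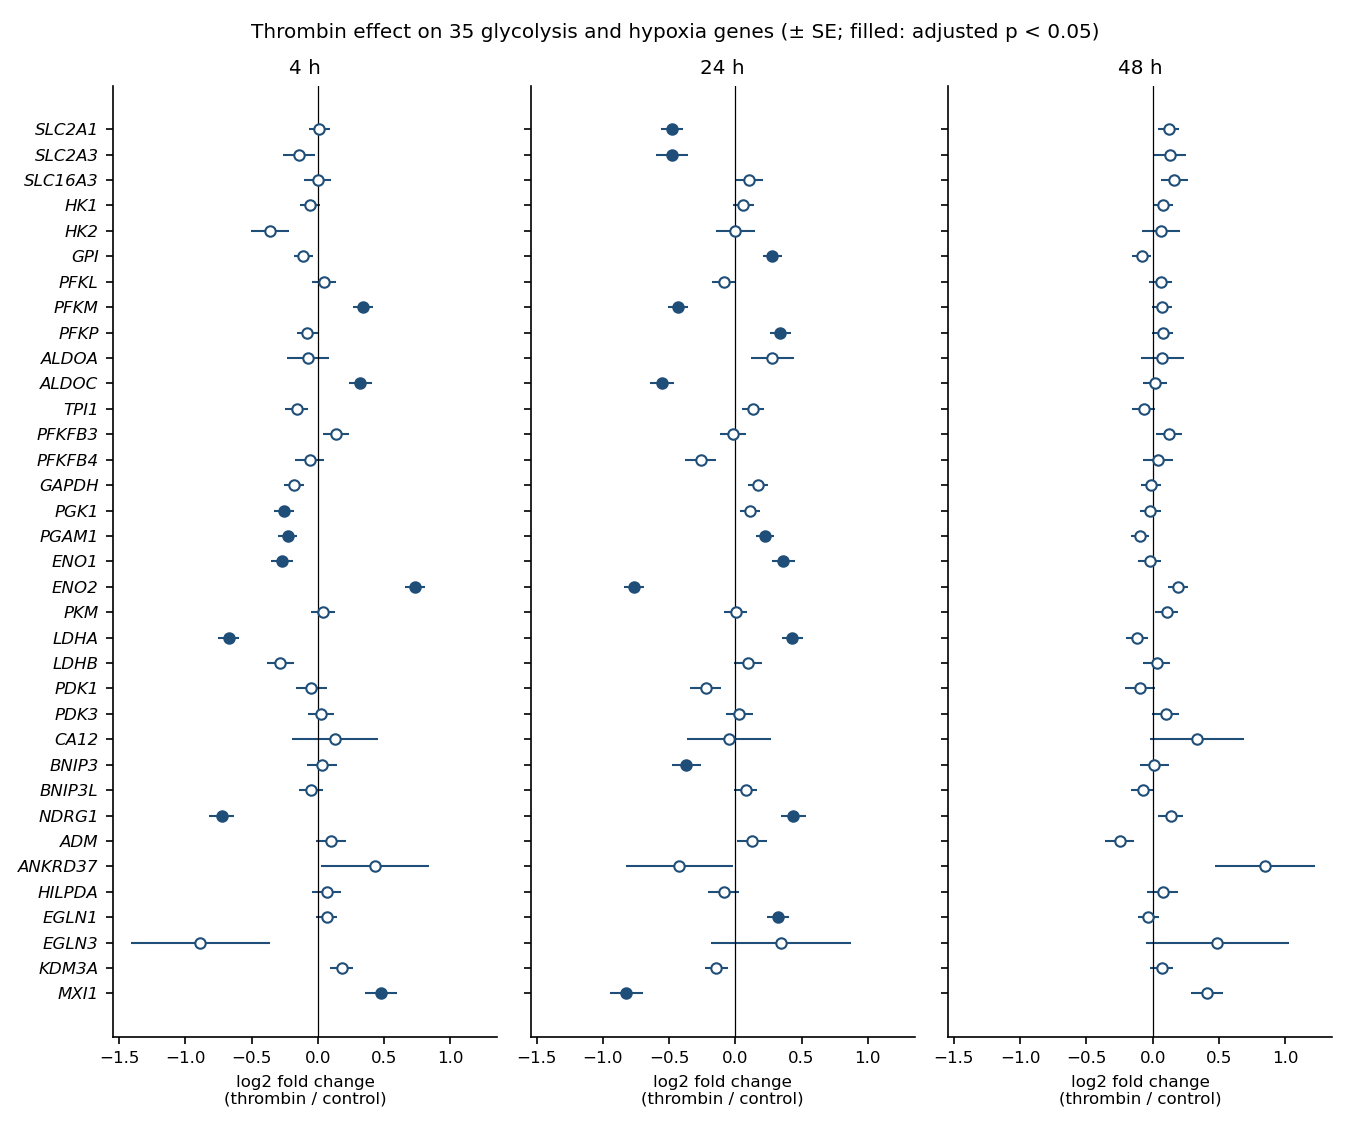
Log2 fold change of thrombin against control (x axis) for the 35 tested members (y axis, ordered by role) at 4, 24 and 48 h. Points are edgeR estimates, bars are standard errors, and filled points were called at an adjusted p under 0.05: 9 at 4 h, 14 at 24 h and 0 at 48 h.

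Values per library are CPM scaled by the trimmed mean of M-values (TMM), in the order 12, 13 and 14. A level given with ± is a mean with its SD over 3 libraries, and a log2 fold change with ± carries its standard error.

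Enolase catalyses the step before pyruvate kinase, and its gene ENO2, named for neurons, showed the largest thrombin effect of the glycolytic enzymes at 4 h and 24 h. At 4 h ENO2 measured 68.3, 64.0 and 61.1 CPM in control and 101, 105 and 115 CPM under thrombin. ENO2 measured 129, 123 and 124 CPM in control and 74.0, 72.9 and 74.2 CPM under thrombin at 24 h. ENO2 measured 88.3, 89.4 and 96.1 CPM in control and 107, 105 and 100.02 CPM under thrombin at 48 h. Thrombin libraries were all higher than controls at 4 h and 48 h and all lower at 24 h, with no overlap at any of the 3 times. The log2 fold change was 0.73 ± 0.08 at 4 h (SE, edgeR adjusted p = 1.17e-06), -0.77 ± 0.08 at 24 h (edgeR adjusted p = 5.98e-08) and 0.19 ± 0.08 at 48 h (edgeR adjusted p = 0.612). ENO1, the widespread isoenzyme, went the opposite way. Its 3 controls of 4 h measured 885, 821 and 845 CPM and its thrombin libraries 661, 698 and 759 CPM. At 24 h the values were 628, 632 and 690.0 CPM in control and 742, 830.4 and 935 CPM under thrombin, again without overlap. ENO1 changed by -0.27 ± 0.08 at 4 h (edgeR adjusted p = 0.0372) and 0.36 ± 0.08 at 24 h (edgeR adjusted p = 0.00331). The call at 4 h was lost when control library 12, 13 or 14 or thrombin library 12 or 13 of 4 h was left out, and also without control library 13 of 24 h, thrombin library 13 of 48 h or all libraries numbered 12 (edgeR adjusted p up to 0.119).

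Phosphofructokinase commits glucose to glycolysis. Its muscle gene PFKM measured 68.2, 67.5 and 65.0 CPM in control and 84.6, 84.2 and 85.3 CPM under thrombin at 4 h. PFKM measured 97.0, 91.5 and 96.3 CPM in control and 73.4, 71.7 and 66.5 CPM under thrombin at 24 h. PFKM measured 79.3, 83.9 and 86.8 CPM in control and 82.4, 86.2 and 93.6 CPM under thrombin at 48 h. All thrombin libraries lay above the controls at 4 h and below them at 24 h, and the groups overlapped at 48 h. PFKM rose by 0.34 ± 0.08 at 4 h (edgeR adjusted p = 0.00421) and changed by -0.43 ± 0.08 at 24 h (edgeR adjusted p = 0.000211). The platelet gene PFKP was not called at 4 h (-0.08 ± 0.08) and rose at 24 h, from 246 ± 9.00 to 311 ± 22.3 CPM (SD, n = 3; 0.34 ± 0.08, edgeR adjusted p = 0.00309). The liver gene PFKL was not called at any time, with 0.04 ± 0.09, -0.08 ± 0.09 and 0.06 ± 0.09 at 4, 24 and 48 h. The bifunctional enzymes PFKFB3 and PFKFB4, which set the level of a phosphofructokinase activator, were not called either, with log2 fold changes between -0.26 and 0.14 over the 3 times.

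Aldolase splits the phosphorylated hexose. ALDOC measured 62.7, 56.6 and 55.4 CPM in control and 72.0, 69.1 and 77.2 CPM under thrombin at 4 h. ALDOC measured 68.4, 65.1 and 66.1 CPM in control and 49.6, 47.6 and 39.2 CPM under thrombin at 24 h. ALDOC measured 52.5, 53.8 and 56.8 CPM in control and 54.8, 57.6 and 52.6 CPM under thrombin at 48 h. Thrombin libraries were all higher at 4 h, all lower at 24 h and mixed with controls at 48 h. The log2 fold change was 0.32 ± 0.09 at 4 h (edgeR adjusted p = 0.0167) and -0.55 ± 0.09 at 24 h (edgeR adjusted p = 7.28e-05); the 4 h call was lost without control library 13 or 14 or thrombin library 14 of that time (adjusted p up to 0.0962). ALDOA, with its shared exons, ranged from 27.2 to 51.3 CPM and was not called at any time. Without thrombin library 12 of 24 h, or all libraries numbered 12, ALDOA was called higher at 24 h (0.53 and edgeR adjusted p = 0.00208 without all of them).

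Among the other upper-pathway enzymes, GPI, which converts glucose phosphate to its fructose form, rose at 24 h from 290.4 ± 13.0 to 352 ± 26.9 CPM (0.28 ± 0.07, edgeR adjusted p = 0.00802). That call was lost without thrombin library 13 of 24 h (adjusted p = 0.0546). The hexokinase genes HK1 and HK2 were not called at 4, 24 or 48 h, with HK2 at -0.36 ± 0.14 at 4 h. Without all libraries numbered 12, HK2 was called lower at 4 h (-0.47, edgeR adjusted p = 0.0193), as it was without control library 12 of 4 h, without the count filter and with the replicate block. TPI1, the triose isomerase gene, stayed between -0.16 and 0.13, and was not called.

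The lower pathway yields the ATP. PGAM1, which encodes phosphoglycerate mutase, changed by -0.23 ± 0.07 at 4 h (edgeR adjusted p = 0.0334) and 0.23 ± 0.07 at 24 h (edgeR adjusted p = 0.0259). Its means were 251 ± 6.70 CPM in control and 214 ± 14.0 CPM under thrombin at 4 h, and 205 ± 5.33 and 240.1 ± 2.16 CPM at 24 h. PGK1, the phosphoglycerate kinase gene, went from 137 ± 9.12 to 115 ± 6.46 CPM at 4 h (-0.26 ± 0.08, edgeR adjusted p = 0.0286) and was not called at 24 h (0.11 ± 0.08). Both calls at 4 h were lost without control library 12 or 13 or thrombin library 12 or 14 of that time, the PGAM1 call also without control library 14, with adjusted p up to 0.133 for PGAM1 and 0.127 for PGK1. The PGAM1 call at 24 h was lost when any one of the 6 libraries of 24 h was left out (adjusted p up to 0.0987). GAPDH, often used as a reference gene, measured 2207 ± 29.7 and 1946 ± 159 CPM in control and thrombin at 4 h and 1863 ± 81.5 and 2101 ± 128 CPM at 24 h. GAPDH was not called at either time (-0.18 ± 0.08 and 0.17 ± 0.08), although its groups did not overlap at either. PKM, the pyruvate kinase gene, was at 0.04 ± 0.09, 0.00 ± 0.09 and 0.10 ± 0.09 at 4, 24 and 48 h.

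LDHA encodes the lactate dehydrogenase subunit that favours lactate formation. LDHA measured 246, 262 and 247 CPM in control and 171, 165 and 137 CPM under thrombin at 4 h. LDHA measured 168, 164 and 183 CPM in control and 237, 233 and 224 CPM under thrombin at 24 h. LDHA measured 188, 190.4 and 202 CPM in control and 169, 187 and 178 CPM under thrombin at 48 h. Thrombin libraries were all lower at 4 h, all higher at 24 h, and all slightly lower at 48 h. The log2 fold change was -0.67 ± 0.08 (edgeR adjusted p = 7e-06), 0.43 ± 0.08 (edgeR adjusted p = 0.000451) and -0.12 ± 0.08 (edgeR adjusted p = 0.771). LDHB, the other subunit, was not called (-0.28 ± 0.10, 0.10 ± 0.10 and 0.03 ± 0.10), and without all libraries numbered 12 it was called lower at 4 h (-0.27, edgeR adjusted p = 0.0379), as it was without thrombin library 12 of 4 h or of 48 h and without the count filter. PDK1 and PDK3, kinases that hold back pyruvate dehydrogenase, were not called at any time, with log2 fold changes from -0.22 to 0.10.

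Glucose enters these cells through transporters such as SLC2A1 and SLC2A3. SLC2A1 measured 116, 123 and 117 CPM in control and 112, 119 and 129 CPM under thrombin at 4 h. SLC2A1 measured 119, 123 and 114 CPM in control and 81.7, 90.3 and 84.0 CPM under thrombin at 24 h. SLC2A1 measured 105, 105 and 94.2 CPM in control and 119.7, 107 and 105 CPM under thrombin at 48 h. The 3 thrombin libraries of 24 h were the lowest of all 18, and the groups overlapped at 4 h and 48 h. The log2 fold change was 0.01 ± 0.08 at 4 h and -0.48 ± 0.08 at 24 h (edgeR adjusted p = 0.000143). SLC2A3 went from 28.5 ± 2.46 to 20.5 ± 3.02 CPM at 24 h (-0.48 ± 0.12, edgeR adjusted p = 0.00782), a call lost without thrombin library 12 of 24 h (adjusted p = 0.0546). SLC16A3, which exports lactate, was not called at any time (0.00 ± 0.10, 0.11 ± 0.10 and 0.16 ± 0.10).

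**Figure D2:**
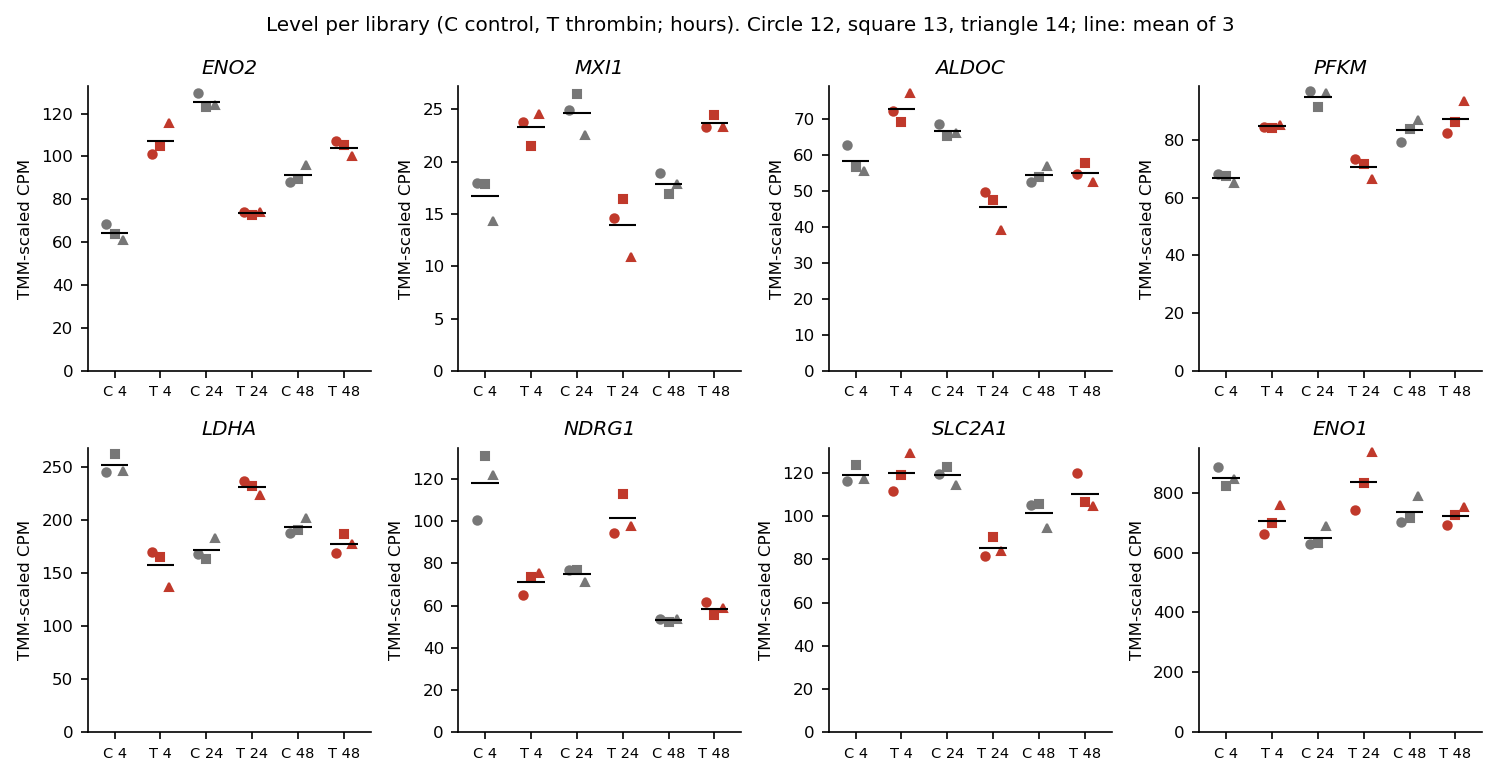
TMM-scaled CPM (y axis, from 0) of 8 members in each of the 18 libraries, by group (x axis; C control, T thrombin, hours), with lines at the mean of 3. ENO2, MXI1, ALDOC and PFKM were higher under thrombin at 4 h and lower at 24 h, and LDHA, NDRG1 and ENO1 the reverse; SLC2A1 differed at 24 h.

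Of the hypoxia response genes outside glycolysis, NDRG1 and MXI1 were called at both 4 h and 24 h. NDRG1 is a stress-induced gene known to respond to hypoxia and iron loss. NDRG1 measured 101, 131 and 122 CPM in control and 64.9, 73.4 and 75.5 CPM under thrombin at 4 h. NDRG1 measured 76.8, 76.8 and 71.1 CPM in control and 94.1, 113 and 97.8 CPM under thrombin at 24 h. NDRG1 measured 53.7, 52.4 and 53.7 CPM in control and 61.5, 55.6 and 58.7 CPM under thrombin at 48 h. Thrombin libraries were all lower at 4 h and all higher at 24 h and 48 h. The log2 fold change was -0.73 ± 0.09 (edgeR adjusted p = 1.8e-05), 0.44 ± 0.09 (edgeR adjusted p = 0.0016) and 0.14 ± 0.10 (edgeR adjusted p = 0.776). MXI1 encodes a MAX partner that opposes MYC. MXI1 measured 17.9, 17.8 and 14.3 CPM in control and 23.8, 21.6 and 24.6 CPM under thrombin at 4 h. MXI1 measured 24.9, 26.5 and 22.6 CPM in control and 14.7, 16.4 and 10.9 CPM under thrombin at 24 h. MXI1 measured 18.9, 16.9 and 17.9 CPM in control and 23.3, 24.5 and 23.3 CPM under thrombin at 48 h. Its groups did not overlap at any time, with thrombin higher at 4 h, lower at 24 h and higher at 48 h. MXI1 rose by 0.48 ± 0.12 at 4 h (edgeR adjusted p = 0.0112), changed by -0.82 ± 0.13 at 24 h (edgeR adjusted p = 3.48e-05) and was not called at 48 h (0.41 ± 0.12, edgeR adjusted p = 0.428). The 4 h call was lost without control library 14 or thrombin library 14 of that time (adjusted p up to 0.0768). MYC itself moved the other way, by -0.36 ± 0.08 at 4 h and 0.78 ± 0.08 at 24 h (edgeR adjusted p = 0.00478 and 1.43e-07).

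EGLN1, the main oxygen-sensing HIF hydroxylase, rose at 24 h from 66.4 ± 3.59 to 83.0 ± 4.85 CPM (0.32 ± 0.08, edgeR adjusted p = 0.00615). BNIP3, a mitophagy receptor gene, changed at 24 h by -0.37 ± 0.11 (edgeR adjusted p = 0.0237), and lost that call without control library 12 or 13 or thrombin library 12 or 13 of 24 h, and without all libraries numbered 12 (edgeR adjusted p up to 0.0909). BNIP3L, its relative, was not called (-0.05 ± 0.09, 0.08 ± 0.09 and -0.08 ± 0.09). The histone demethylase gene KDM3A, the lipid droplet gene HILPDA and ADM, which encodes the peptide adrenomedullin, were not called at any time, with log2 fold changes between -0.25 (ADM, 48 h) and 0.18 (KDM3A, 4 h). Several genes that are usually among the most hypoxia-inducible were near the limit of detection: CA9 had 0 to 6 raw counts per library, EGLN3 3 to 20, ANKRD37 5 to 18 and CA12, the other carbonic anhydrase, 8 to 19. For EGLN3, ANKRD37 and CA12 no difference was called, and standard errors of 0.32 to 0.54 log2 units mean that only large differences were detectable at this depth.

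The change between times was tested directly as the difference of the thrombin effects. From 4 h to 24 h the effect became more positive in 8 members and more negative in 6, against 13.6% and 14.3% of all genes. The difference was -1.50 ± 0.11 for ENO2 (edgeR adjusted p = 1.65e-10), -1.30 ± 0.17 for MXI1 (3.76e-06), 1.16 ± 0.13 for NDRG1 (3.06e-07) and 1.10 ± 0.11 for LDHA (8.18e-08). GAPDH and KDM3A differed between times (0.35 ± 0.11 and -0.32 ± 0.12; edgeR adjusted p = 0.0158 and 0.0486) without being called at either. The KDM3A call was lost with the replicate block, without the count filter and when any of 14 libraries was left out, among them every control of 4 h and 24 h (edgeR adjusted p up to 0.126). The GAPDH call was lost without control library 13 of 24 h (edgeR adjusted p = 0.0525), and that of PGK1 (0.37 ± 0.11) without all libraries numbered 12 (edgeR adjusted p = 0.0818). From 24 h to 48 h the effect became more positive in 6 members and more negative in 5, against 7.16% and 6.68%, among them ENO2 (0.96 ± 0.11, edgeR adjusted p = 7.74e-07) and MXI1 (1.23 ± 0.17, edgeR adjusted p = 2.23e-05). The count of more negative members was 1 without control library 13 of 24 h, 2 without control library 12 of 24 h, control library 14 of 48 h or thrombin library 13 of 48 h, and 3 without thrombin library 13 of 24 h or thrombin library 12 of 48 h. Over all genes the count in those runs was 770, then 733, 1137 and 798, then 1095 and 745, beside 1026 with every library.

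**Figure D3:**
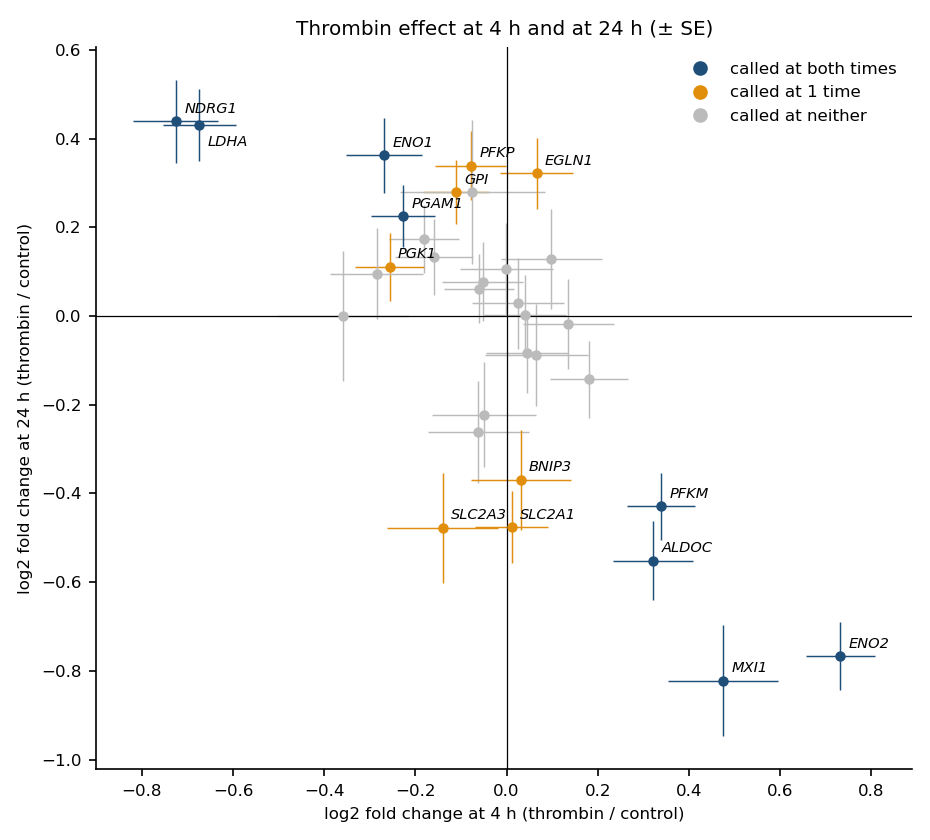
Log2 fold change of thrombin against control at 4 h (x axis) and at 24 h (y axis) for 32 members, with standard errors; CA12, EGLN3 and ANKRD37, whose errors are wide, are left out. The 8 members called at both times lie in the quadrants of opposite sign.

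The controls also differed between times. Between control 4 h and control 24 h, without thrombin, 4 members rose and 7 fell, against 8.1% and 7.15% of all genes. Without control library 13 of 4 h or of 24 h, 4 members fell. Over all genes, 711 and 657 fell in these runs, beside 1097 with every library. ENO2 changed by 0.96 ± 0.08, MXI1 by 0.56 ± 0.12, PFKM by 0.50 ± 0.08 and KDM3A by 0.27 ± 0.09 (edgeR adjusted p = 1.36e-08, 0.0027, 5.49e-05 and 0.0314). The members that fell were NDRG1 (-0.65 ± 0.09), LDHA (-0.55 ± 0.08), ENO1 (-0.39 ± 0.08), PGAM1 (-0.29 ± 0.07), TPI1 (-0.25 ± 0.09), GAPDH (-0.24 ± 0.08) and GPI (-0.23 ± 0.07). Of these 11 calls between the controls, 7 were kept in every alternative run. The TPI1 call was lost with DESeq2 size factors. When any 1 control library of 4 h or 24 h was left out, 3 members rose. All genes that rose in those runs numbered 702 to 1190, beside 1243 with every library. This comparison shares its control libraries with the thrombin effects at both times, so the values are set side by side and not counted as separate evidence. For LDHA the log2 change from control 4 h was -0.67 to thrombin 4 h, -0.55 to control 24 h and -0.12 to thrombin 24 h, and for ENO2 it was 0.73, 0.96 and 0.19. Between thrombin 24 h and control 4 h, 1 member was higher (PFKP, 0.31 ± 0.08) and 2 lower (SLC2A1, -0.48 ± 0.08, and ALDOC, -0.36 ± 0.09), against 2.37% and 0.97% of all genes (3.34% in all). The PFKP call was lost without control library 12 of 4 h or thrombin library 13 of 24 h, and 1 member was called lower without control library 12 of 4 h or thrombin library 14 of 24 h. Over all genes, 119 were lower without that control library and 148 without thrombin library 14, beside 149 with every library.

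From control 24 h to control 48 h, 1 member rose (ADM, 0.46 ± 0.11) and 4 fell (NDRG1, -0.49 ± 0.10; ENO2, -0.46 ± 0.08; MXI1, -0.46 ± 0.12; ALDOC, -0.29 ± 0.09), against 2.69% and 3.43% of all genes (6.12% in all). ADM was not called without control library 13 of 24 h or control library 12 of 48 h, and 2 members fell without control library 12 or 13 of either time. Over all genes, 118 and 149 fell without those of 24 h and 155 and 185 without those of 48 h, beside 527 with every library. NDRG1 was lowest in the 48 h groups, at 53.3 ± 0.754 CPM in control and 58.6 ± 2.95 CPM under thrombin. In thrombin-labelled cells, 4 members rose (PFKP, LDHA, NDRG1 and, with an edgeR adjusted p that rounds to 0.05, ENO1) and 5 fell (ENO2, MXI1, ALDOC, PFKM and SLC2A1) from 4 h to 24 h, against 7.85% and 7.28%. The ENO1 call was lost with DESeq2 size factors. With these, with upper-quartile scaling and in most runs that left out 1 library, 3 members rose. All genes that rose numbered 1210 and 1088 under the 2 scalings, beside 1205. From 24 h to 48 h under thrombin, 7 rose and 5 fell, against 4.31% and 5.41% (9.72% in all), with MXI1 at 0.77 ± 0.12, ENO2 at 0.50 ± 0.08, SLC2A1 at 0.37 ± 0.08, NDRG1 at -0.79 ± 0.09 and LDHA at -0.38 ± 0.08. There, 3 rose without thrombin library 14 of 48 h, 4 rose without thrombin library 13 or 14 of 24 h or 12 or 13 of 48 h, and 3 fell without thrombin library 13 of 24 h. Over all genes, 479 rose in the first of these runs, then 458, 341, 420 and 379, beside 662 with every library. Without thrombin library 13 of 24 h 608 genes fell, beside 830. Without all libraries numbered 12, 10 members and 1131 of 15520 genes fell. The order of ENO2 group means, from low to high, was control 4 h (64.4 ± 3.64 CPM), thrombin 24 h (73.7 ± 0.716), control 48 h (91.3 ± 4.22), thrombin 48 h (104 ± 3.66), thrombin 4 h (107 ± 7.46) and control 24 h (125 ± 3.44). Thrombin 48 h and thrombin 4 h, neighbours in this order, overlapped.

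Because some isoenzymes moved in opposite directions, the log2 ratio of their CPM was taken in each library. These ratios were thus prompted by the same data, restate the changes of the single genes and are not separate evidence. PFKL was not paired. The ratio does not depend on library scaling, and its absolute value also reflects gene length. The ENO2/ENO1 ratio was -3.72 ± 0.06 in control and -2.72 ± 0.01 under thrombin at 4 h, and -2.37 ± 0.10 in control and -3.50 ± 0.17 under thrombin at 24 h (SD, n = 3). The mean ratio of the thrombin-labelled group thus differed from that of control by 1.00 at 4 h, -1.12 at 24 h and 0.21 at 48 h. For PFKM/PFKP the differences were 0.42, -0.77 and -0.01, and for LDHA/LDHB -0.40, 0.34 and -0.14. For ALDOC/ALDOA they were 0.41, -0.79 and -0.06, and for HK2/HK1 -0.28, -0.07 and -0.02. Control and thrombin ratios did not overlap at 4 h or 24 h for enolase, phosphofructokinase and lactate dehydrogenase, and for aldolase and hexokinase they did not overlap at 4 h and overlapped at 24 h and 48 h. ENO1, PFKM, PFKP, LDHB and ALDOA carry the counting uncertainty of overlapping genes into these ratios. So do ALDOC, HK1 and HK2, through opposite-strand genes without a row in the table. ENO1, LDHA, LDHB, ALDOA and HK2 also have annotated pseudogenes. The exact, both-sided permutation test gave p = 0.1 for each pair of groups that did not overlap, the smallest that 3 libraries against 3 can give, and 0.167 after Benjamini-Hochberg adjustment over 15 comparisons (5 gene pairs, 3 times), so none could pass 0.05.

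**Figure D4:**
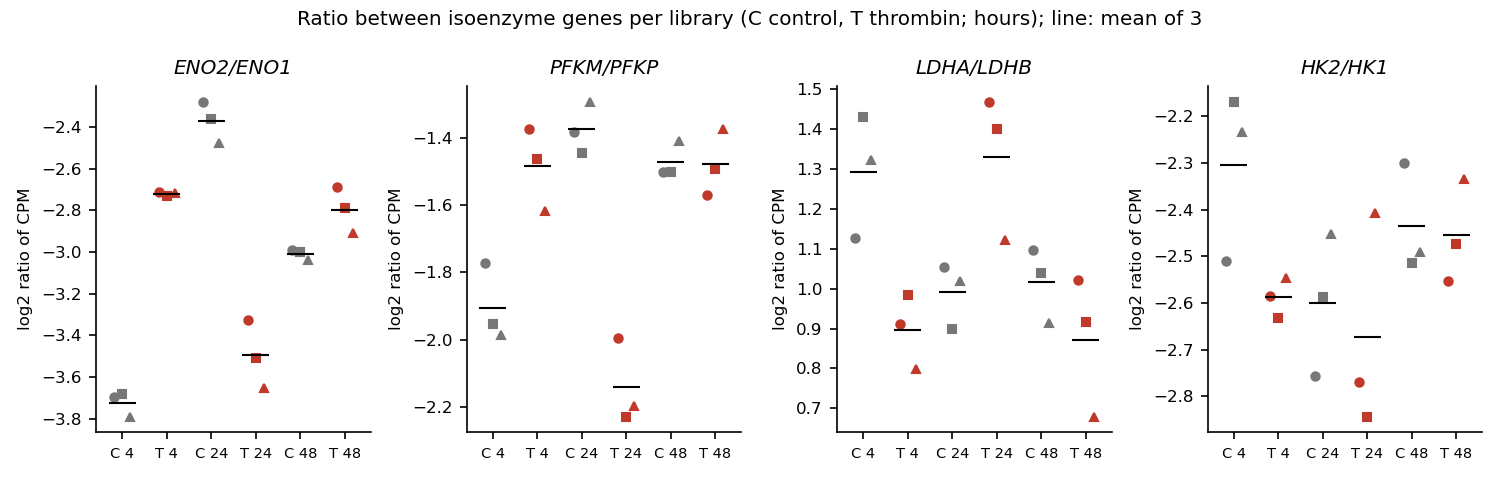
Log2 ratio of CPM (y axis, scale set for each panel) between isoenzyme genes in each of the 18 libraries, by group (x axis), with lines at the mean of 3. The ENO2/ENO1 and PFKM/PFKP ratios were higher under thrombin at 4 h and lower at 24 h, and LDHA/LDHB the reverse.

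Other genes of these pathways were taken from lists of known pathway genes, to be read beside the 11.8% of all genes called at 4 h and 17.6% at 24 h. Of 28 tested other HIF target genes, 3 rose and 5 fell at 4 h and 7 rose and 3 fell at 24 h (28.6% and 35.7% called; median log2 fold change -0.03 and 0.00). The collagen hydroxylase gene PLOD2 changed by -0.39 ± 0.11 at 4 h and 0.59 ± 0.11 at 24 h, and the zinc finger gene ZNF395 by 0.33 ± 0.09 and -0.57 ± 0.10; both were called at both times. VEGFA, the angiogenic factor gene, was not called at 4 h (-0.12 ± 0.12) and rose at 24 h by 0.69 ± 0.12 (edgeR adjusted p = 0.000246). Of 10 HIF pathway regulators, 1 rose and 1 fell at 4 h and 1 rose and 1 fell at 24 h (20% called at each time). EPAS1, the second HIF alpha subunit gene, changed by -0.43 ± 0.14 and 0.44 ± 0.14 (edgeR adjusted p = 0.0444 and 0.0296). Its CPM ranges in control and thrombin overlapped at 4 h and did not overlap at 24 h. CITED2, which encodes a competitor for HIF coactivators, changed by 0.26 ± 0.09 and -0.29 ± 0.09. HIF1A was not called (-0.19 ± 0.11 and 0.23 ± 0.11), and neither was its partner gene ARNT (0.11 ± 0.09 and 0.00 ± 0.09). None of these genes was called at 48 h, where edgeR made 0 calls in all lists and at most 4 genes of a list had an unadjusted p under 0.05.

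In the remaining lists the share called was 7.69% and 15.4% at 4 h and 24 h for other glycolysis genes, 21.1% and 15.8% for pyruvate entry and transport, 12.5% at each time for the pentose phosphate list, 6.25% at each time for the tricarboxylic acid cycle, and 3.85% and 0% for the respiratory chain, against 11.8% and 17.6% of all genes. Of 13 tested other glycolysis genes, 0 rose and 1 fell at 4 h and 2 rose and 0 fell at 24 h, among them the phosphoglucomutase gene PGM2 (-0.45 ± 0.11 and 0.59 ± 0.11). Of 19 genes of pyruvate entry and of monocarboxylate and sugar transport, 2 rose and 2 fell at 4 h and 1 rose and 2 fell at 24 h. PDK2, a pyruvate dehydrogenase kinase gene, changed by 0.44 ± 0.10 at 4 h and -0.42 ± 0.10 at 24 h (edgeR adjusted p = 0.00573 and 0.0053). The monocarboxylate transporter gene SLC16A1 changed by -0.41 ± 0.09 at 4 h. In the pentose phosphate list of 8, H6PD changed by -0.46 ± 0.07 and 0.33 ± 0.07 and no other gene was called at 4 h or 24 h. Of 16 tricarboxylic acid cycle genes, 0 rose and 1 fell at 4 h and 1 rose and 0 fell at 24 h, with SUCLG2 at -0.35 ± 0.11 at 4 h and the citrate synthase gene CS at 0.23 ± 0.07 at 24 h. Of 26 nuclear-encoded respiratory chain genes, 0 rose and 1 fell at 4 h (NDUFA1, -0.37 ± 0.11) and 0 rose and 0 fell at 24 h, where 1 had an unadjusted p under 0.05. The median log2 fold change of the respiratory chain list was -0.17 at 4 h and 0.07 at 24 h, and of the members -0.05 and 0.03.

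Replication-dependent histone transcripts mostly lack poly(A) tails and bear on how the RNA was enriched. The summed level of 18 such genes was 218 to 249 CPM in control and 189 to 234 CPM under thrombin at 4 h, and 163 to 173 and 191 to 198 CPM at 24 h, with 1 of 15 tested genes (H2AC6) called at each time; their part in the results was not tested. In LDHA, ENO2, PFKM and NDRG1 the calls at 4 h and 24 h held with the same sign in every alternative run, including without all libraries numbered 12. Under that alternative LDHA was at -0.75 and 0.40, ENO2 at 0.82 and -0.75, PFKM at 0.35 and -0.44 and NDRG1 at -0.76 and 0.51 at 4 h and 24 h.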

How the data were processed

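The deposited table gave raw read counts by gene symbol, 1 column for each of the 18 libraries. The submitters' processing notes name GRCh38 (hg38), DESeq2, SAMtools 1.21, Bowtie2 2.5.4 and cutadapt 4.9. The part each tool played, the counter, the annotation and the strand setting are not given in the sources used here. If reads were aligned to the genome by Bowtie2, which is not splice-aware, reads across junctions may be missing.

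The tests used edgeR 4.0.16 under R 4.3.3. filterByExpr (minimum count 10, minimum total 15) kept 15353 genes, libraries were scaled by TMM, and 1 robust quasi-likelihood model, with a mean for every group, covered the 18 libraries (residual degrees of freedom 12, common coefficient of biological variation 9.07%). Tests were 2-sided and adjusted by Benjamini-Hochberg over 15353 genes. The procedure was tested on simulated data. A standard error is the log2 fold change over the square root of F. Alternatives were DESeq2 1.42.0, other scalings, no filter, a replicate block and libraries left out.

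The members and lists were chosen with earlier results of these data known. Values per library were printed for up to 6 called members with the smallest adjusted p per thrombin comparison and the 4 largest called changes between controls of 4 h and 24 h; ENO1 was added after its values were seen. From other lists up to 4 genes with the smallest adjusted p, and HIF1A, EPAS1, ARNT, VEGFA and MYC, were named; 1 gene that this rule names is not reported here.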

Additional observations from a re-analysis of the deposited data

Results flagged for a closer look

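The thrombin effect differed between 4 h and 24 h, by an edgeR test of the difference itself, in 14 of the 35 members tested (40%), against 28% of all genes. Among genes averaging at least 10 CPM it differed in 14 of 32 members, against 32.9%. At an average of 100 CPM or more it differed in 8 of 14 members, against 37.1%. The effect at 24 h minus that at 4 h, in log2 units, was more negative in ENO2 (-1.50), MXI1 (-1.30), PFKM (-0.77), ALDOC (-0.87), SLC2A1 (-0.49), KDM3A (-0.32). It was more positive in LDHA (1.10), NDRG1 (1.16), ENO1 (0.63), PGAM1 (0.45), GPI (0.39), PFKP (0.42), PGK1 (0.37), GAPDH (0.35). The edgeR adjusted p ranged from 1.65e-10 (ENO2) to 0.0486 (KDM3A). The KDM3A difference was not called with the replicate block, nor in most fits that left out 1 library.

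Between 24 h and 48 h the effect differed in 11 members (31.4%) by the same kind of test, against 13.8% of all genes. Among genes averaging at least 10 CPM it differed in 11 of 32 members, against 16.3%. The effect at 48 h minus that at 24 h was more positive in ENO2 (0.96), MXI1 (1.23), SLC2A1 (0.60), PFKM (0.50), ALDOC (0.57), SLC2A3 (0.61) and more negative in LDHA (-0.55), GPI (-0.36), PGAM1 (-0.32), ENO1 (-0.39), EGLN1 (-0.35), with edgeR adjusted p from 7.74e-07 to 0.038. The libraries of 24 h enter both sets of differences, so the sets are not independent. Groups of 3 libraries are too small for a test of single outlying libraries.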

How the results depend on the processing

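No called member changed sign under any alternative run. Of the members called at 4 h and 24 h, 4 of 9 and 10 of 14 stayed called in all of them. With each library left out in turn, members called were 2 to 4 higher and 2 to 6 lower at 4 h, 5 to 7 higher and 5 to 7 lower at 24 h and 0 in either direction at 48 h. For the 24 h minus 4 h difference they were 7 to 10 higher and 5 to 6 lower, and for 48 h minus 24 h 5 to 6 higher and 1 to 5 lower. All genes called in these runs were 425 to 1283 higher and 415 to 1114 lower at 4 h. At 24 h they were 913 to 1537 and 785 to 1445, and at 48 h 0 to 2 in each direction. For the 24 h minus 4 h difference 1670 to 2306 genes were higher and 1800 to 2404 lower. The 48 h minus 24 h difference had 732 to 1215 and 733 to 1187. For control 24 h against 4 h, 3 to 4 members were higher and 4 to 7 lower. All genes there numbered 702 to 1380 and 584 to 1195. For control 48 h against 24 h, 0 to 1 members were higher and 2 to 4 lower. All genes there numbered 96 to 619 and 118 to 647. For thrombin 24 h against 4 h, 3 to 4 members were higher and 4 to 7 lower. All genes there numbered 750 to 1432 and 634 to 1538. For thrombin 48 h against 24 h, 3 to 8 members were higher and 3 to 7 lower. All genes there numbered 341 to 743 and 504 to 924. For thrombin 4 h against control 24 h, 0 members were called, beside 0 to 5 and 0 to 9 genes. For thrombin 24 h against control 4 h, 0 to 1 members were higher and 1 to 2 lower. All genes there numbered 230 to 435 and 94 to 177. In the 6 libraries of 4 h alone, 2 members and 668 of 15031 genes were called lower, with ENO1, PGK1, PGAM1 and ALDOC losing their calls. The PGK1 and PGAM1 calls at 4 h were also lost without the count filter and without all libraries numbered 12, and the PGAM1 call at 24 h without the filter and with upper-quartile scaling. The 48 h minus 24 h difference was more negative in 3 members with upper-quartile scaling and in 3 without the count filter. Over all genes it was more negative in 936 of 15353 and in 1334 of 23839 in these runs. Without all libraries numbered 12, 2 members were lower in control 48 h against 24 h, 10 in thrombin 48 h against 24 h and 1 in thrombin 4 h against control 24 h (SLC2A3, -0.52, edgeR adjusted p = 0.0493). Over all genes the numbers lower in these comparisons were 178, 1131 and 26, beside 527, 830 and 8 with those libraries. At 4 h, 1772 genes were called higher and 1788 lower, beside 965 and 848 with them. DESeq2 called 2 members and 531 of 13313 genes higher in thrombin 24 h against control 4 h. The cause of these shifts was not tested. The label numbers were not taken to pair the libraries, since not every pair correlated above 0.1. Deviations of same-numbered thrombin and control libraries of one time correlated at -0.0931 to 0.0574 across genes. Those of different number correlated at -0.143 to 0.133. Over all pairs of groups, 11 of 45 same-numbered pairs were above 0.1 (-0.167 to 0.275), and 9 of 18 libraries correlated best with their own number. These values do not exclude variation shared by libraries of the same number. With the replicate block, 4 members were called higher and 6 lower at 4 h, and 7 and 7 at 24 h. Of 15353 genes, that run called 951 higher and 878 lower at 4 h, and 1370 and 1308 at 24 h. There HK2 was gained at 4 h, and KDM3A lost for the 24 h minus 4 h difference. Depth limits CA9, CA12, EGLN3 and ANKRD37.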
